A study of Homo sapiens with 6 samples.

Results

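LASP1 and 9 genes for proteins that bind actin at focal adhesions were followed in MDA-MB-231 cells, a mesenchymal triple-negative breast cancer line. The genes were chosen by symbol (LASP1, ZYX, VASP, ACTN1, ACTN4, FLNA, PALLD, LIMA1, VCL and TLN1), and each of the 10 was found once among the 60605 genes of the deposited table. Polyadenylated RNA was sequenced from 3 shControl libraries, whose cells carried a control short hairpin RNA, and from 3 shPUS1 libraries, whose cells carried a hairpin against PUS1, a pseudouridine synthase that converts uridine to pseudouridine in tRNA and mRNA. Hairpins were delivered by lentivirus in the puromycin-resistant pLKO.1 vector, so cells of both groups had been infected and selected. The comparison asks which transcripts differ once PUS1 is depleted.

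The samples are bulk cultures of a single line. Which of the study's hairpins the sequenced cells carried was not stated, and the names of the shPUS1 columns hold a 2 after the word knockdown that was not explained and was not read as a hairpin number. The labels call the replicates biological, and whether those of a group came from separate infections was not stated, so p-values measure the spread between these libraries, which may be technical in part. In bulk RNA, fewer cells that express a gene and less of its RNA per cell cannot be told apart.

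Focal adhesions are plaques in which integrins at the cell surface are coupled to bundles of actin filaments, called stress fibres. Talin and vinculin carry force between the integrin and actin, alpha-actinins and filamins cross-link the filaments, and a set of LIM and proline-rich proteins, among them LASP1, zyxin and VASP, gathers where filaments are repaired and elongated. In migrating carcinoma cells such plaques assemble at the leading edge and come apart behind it.

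Libraries held 14241505 to 19625998 estimated counts, and 14748 genes passed the filter on low counts and were tested. PUS1 itself was at 2.57, 4.66 and 2.18 FPKM (counts scaled to the length of the exons and the total of the library) in shControl and at 1.13, 0.95 and 0.93 FPKM in shPUS1. All shPUS1 libraries were below all shControl libraries, with a log2 fold change of -1.64 (SE 0.32, edgeR adjusted p = 0.0462). This call was lost when shControl replicate 1 (adjusted p = 0.0905) or shPUS1 replicate 1, 2 or 3 (0.208, 0.253 and 0.192) was left out, with log2 fold changes of -1.78 to -1.59 in those fits. Over all genes tested, the same fits called 0 to 11 genes higher and 0 lower. PUS1 was still called without shControl replicate 2, the library where it was highest (-1.20, edgeR adjusted p = 0.00311). It was also called without shControl replicate 3 (-1.86, edgeR adjusted p = 0.0458) and with DESeq2 (-1.63, adjusted p = 0.000127). The line's markers VIM (286 to 498 FPKM), CD44 (74.6 to 99.6 FPKM), AXL and CAV1 were abundant, ZEB1 was at 8.14 to 12.2 FPKM and SPARC reached 2.23 FPKM at most. The summed level of these 6 markers was 827 to 1039 FPKM in shControl and 616 to 650 FPKM in shPUS1. Of 10 genes the line should lack, ESR1, PGR, KRT5, PTPRC and CDH1 stayed at or below 0.18 FPKM in every library, while ERBB2 was at 4.93 to 6.91, EPCAM at 2.21 to 3.12, PDGFRB at 1.32 to 8.29, COL1A1 at 0.73 to 3.53 and PECAM1 at 0.18 to 0.46 FPKM. Their summed level was 12.3 to 17.9 FPKM in shControl and 18.2 to 20.1 FPKM in shPUS1. No gene of either marker list passed the test across all genes, although VIM, CD44 and AXL were lower and COL1A1 and PDGFRB higher at an unadjusted p under 0.05. Other genes of these lists differed the other way, with log2 fold changes of 0.30 for ZEB1, 0.48 for SPARC, -0.28 for ERBB2 and -0.14 for EPCAM, and the part of these markers in the results below was not tested.

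The library labelled shControl replicate 2 stood apart. Its log2 CPM (counts scaled to the library total) correlated with those of the other shControl libraries at Pearson r = 0.951 and 0.952 across genes, against 0.981 between shControl replicates 1 and 3 and 0.987 to 0.991 between shPUS1 libraries, where genes are not independent replicates. Values for the 10 genes are therefore given with it and without it.

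All 10 genes were expressed well. Ordered by mean FPKM over the 6 libraries, ACTN4 was ranked 84 of the genes tested and PALLD, the lowest of the set, 1648, and each gene had between 2317 and 35137 counts in a library. None of the 10 passed an adjusted p under 0.05 in edgeR's quasi-likelihood test in either direction, where 1.74% of all genes tested were called higher in shPUS1 and 0.841% lower (0.888% and 0.481% where a log2 difference of 1 or more was also asked for). At an unadjusted p under 0.05, 7 of the 10 were higher in shPUS1 and none lower, against 12.6% and 12.8% of all genes tested. In the same 7 genes (ZYX, ACTN1, ACTN4, PALLD, LIMA1, VCL and TLN1), every shPUS1 library exceeded every shControl library on the TMM-scaled CPM, against 18.8% of all genes tested, and none was lower in that way, against 17.3%. The other 3, LASP1, VASP and FLNA, overlapped between the groups. The median log2 fold change was 0.39 over the 10 genes and -0.034 over all genes tested.

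**Figure D1:**
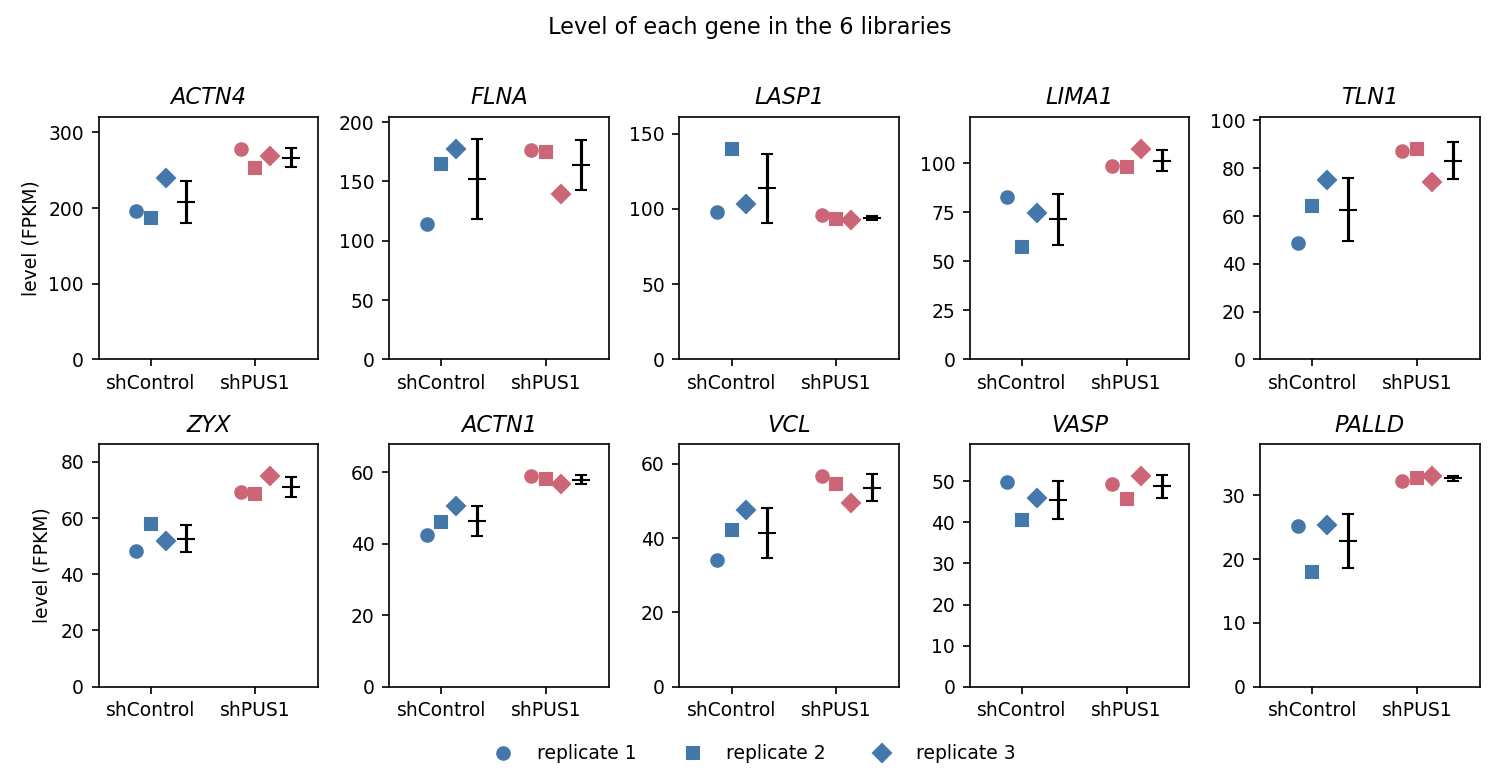
Level of each gene in FPKM (linear axis from 0) in the 3 shControl libraries (blue) and the 3 shPUS1 libraries (red), ordered by mean level, with a marker shape for each replicate and a black bar for the mean ± SD (n = 3 per group). LASP1 is the only gene of the 10 whose mean was lower in shPUS1, and its shControl replicate 2 at 140 FPKM sits above the other 5 libraries.

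The number of these genes past the adjusted threshold depended on the test and on shControl replicate 2. DESeq2 called 5 of the 10 higher (ZYX, ACTN1, ACTN4, PALLD and LIMA1, against 7.12% of all genes tested), and limma voom with sample weights, which gave shControl replicate 2 a weight of 0.101, called 7 (against 11.5%), the genes whose groups did not overlap. With shControl replicate 2 left out, edgeR called 4 higher (ZYX, ACTN1, PALLD and LIMA1, against 9.80% of 15130 genes). Without a filter on low counts PALLD alone was called, against 2.80% of all genes. None of these fits called any of the 10 lower, against 5.56% of genes with DESeq2, 9.48% with voom, 8.79% without shControl replicate 2 and 1.95% without a filter.

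LASP1 is a LIM and SH3 domain protein of the nebulin family that binds filamentous actin, zyxin and VASP and is known from metastatic breast cancer. Its gene lies at chr17:38869859-38921770 on the plus strand in the deposited coordinates, which equal those of GENCODE 29 on GRCh38 (ENSG00000002834). On the opposite strand, AC006441.3 overlaps 6.46% of the exonic bases of LASP1. The level of LASP1 was 98.0, 140.2 and 103.2 FPKM in shControl and 95.9, 93.4 and 92.9 FPKM in shPUS1. The shPUS1 libraries lay close together and below all 3 shControl libraries in FPKM, but on the TMM-scaled CPM the groups overlapped (679 for shControl replicate 1 against up to 687 in shPUS1).

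LASP1 differed by a log2 fold change of -0.26 (SE 0.17, 95% interval -0.65 to 0.13, edgeR adjusted p = 0.363). That value rested largely on shControl replicate 2, in which LASP1 was 1.39 times the mean of the other 2 control libraries. Without that library the difference was -0.055 on the log2 scale (adjusted p = 0.664). The group means were 113.8 ± 23.0 FPKM and 94.0 ± 1.58 FPKM (SD, n = 3 each). A sequence of the LASP1 promoter is shown because the GC box, the motif most common in promoters of this set, lies near its RefSeq start site. It is from RefSeq on GRCh38.p14, chr17:38870032-38870061, plus strand, with the GC box GGGCGG in capitals, whose first base is 14 bases before the RefSeq start of transcription. The deposited gene begins farther upstream, at 38869859, so this stretch lies inside it.
LASP1 promoter: ttaggggaaggaGGGCGGaggcggaggcca
The LASP1 promoter (250 bases before to 50 after the start) had a GC content of 76.3%, against a median of 58.3% over all promoters of the table.

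Zyxin (ZYX) is a LIM protein that moves to strained stress fibres and recruits VASP there. Its level was 48.3, 58.0 and 51.9 FPKM in shControl and 69.2, 68.8 and 75.1 FPKM in shPUS1. The lowest shPUS1 library was above the highest shControl library. ZYX had a log2 fold change of 0.45 (SE 0.13, 95% interval 0.15 to 0.75, edgeR adjusted p = 0.0922). With shControl replicate 2 left out this value was 0.55 (adjusted p = 0.00725). ZYX (chr7:143381295-143391111, plus strand) shares 2.36% of its exonic bases with EPHA1 on the other strand.

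VASP, which elongates actin filaments and is delivered to adhesions by zyxin, was at 49.7, 40.6 and 46.0 FPKM in shControl and at 49.2, 45.8 and 51.3 FPKM in shPUS1. The groups overlapped, with shControl replicate 2 the lowest of the 6 libraries. VASP differed by a log2 fold change of 0.13 (SE 0.12, 95% interval -0.15 to 0.40, edgeR adjusted p = 0.519), and by 0.069 without shControl replicate 2 (adjusted p = 0.654). VASP lies at chr19:45506579-45526983 on the plus strand.

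LIMA1 (EPLIN), a LIM protein that stabilises actin bundles and links cadherin junctions to actin, was at 82.5, 57.1 and 74.7 FPKM in shControl and at 98.6, 97.9 and 107.5 FPKM in shPUS1. The groups were separate, and shControl replicate 2 was the lowest library, at 0.727 times the mean of shControl replicates 1 and 3. The log2 fold change of LIMA1 was 0.53 (SE 0.14, 95% interval 0.20 to 0.86, edgeR adjusted p = 0.0816). Leaving out shControl replicate 2 brought it to 0.41 (adjusted p = 0.0236). LIMA1 lies at chr12:50175788-50283546 on the minus strand.

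Palladin (PALLD), a scaffold of stress fibres that binds alpha-actinin, VASP and LASP1, had the largest fold change and the smallest adjusted p of the set with all 6 libraries, but not with shControl replicate 2 left out, where ZYX led in both. It was at 25.2, 18.0 and 25.3 FPKM in shControl and at 32.2, 32.7 and 33.1 FPKM in shPUS1. The shPUS1 libraries lay within 1 FPKM of each other and above all shControl libraries, of which replicate 2 was again the lowest (0.712 times the mean of the other 2). The log2 fold change was 0.54 (SE 0.14, 95% interval 0.22 to 0.87, edgeR adjusted p = 0.0749). Leaving out shControl replicate 2 brought PALLD to 0.41 (adjusted p = 0.0137). PALLD lies at chr4:168497052-168928457 on the plus strand, and its promoter had a GC content of 46.7%, the lowest of the 10.

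The alpha-actinins cross-link parallel actin filaments as antiparallel dimers. ACTN4 (chr19:38647649-38731589, plus strand), the isoform associated with invasive carcinoma, was at 196.8, 187.2 and 239.6 FPKM in shControl and at 278.8, 253.4 and 268.5 FPKM in shPUS1. Its groups were separate, and it was the most abundant gene of the set in every library. The log2 fold change was 0.39 (SE 0.12, 95% interval 0.10 to 0.67, edgeR adjusted p = 0.112). Leaving out shControl replicate 2 gave ACTN4 a value of 0.33 (adjusted p = 0.0544).

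ACTN1 (chr14:68874128-68979440, minus strand) was at 42.4, 46.0 and 50.7 FPKM in shControl and at 59.0, 58.2 and 56.7 FPKM in shPUS1. Its groups were separate as well, with a log2 fold change of 0.35 (SE 0.11, 95% interval 0.08 to 0.61, edgeR adjusted p = 0.119). Leaving out shControl replicate 2 gave 0.36 (adjusted p = 0.0350). With the counts of ACTN1 and ACTN4 added up as a single gene, the log2 fold change was 0.37 (edgeR adjusted p = 0.108). Stretches of 100 bases shared with transcripts of other genes made up 1.75% of ACTN1 (all with HMGN1P3) and 0.201% of ACTN4 (with the pseudogene ACTN4P1), and none were found in the other 8 genes. Strandedness of the counting was not given in the sources used here, and 14.2% of ACTN4's exonic bases overlap CAPN12 on the opposite strand.

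Filamin A (FLNA, chrX:154348524-154374634, minus strand) cross-links actin filaments into networks and ties them to integrins. It was at 113.8, 164.9 and 177.7 FPKM in shControl and at 176.3, 175.1 and 139.2 FPKM in shPUS1. The groups overlapped widely, with shControl replicate 1 the lowest and shControl replicate 3 the highest of the 6 libraries. The log2 fold change was 0.13 (SE 0.19, 95% interval -0.31 to 0.57, edgeR adjusted p = 0.703), and it was -0.053 without shControl replicate 1 and 0.21 without shControl replicate 2.

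Vinculin (VCL, chr10:73995193-74121363, plus strand), which binds talin under force and strengthens its hold on actin, was at 34.2, 42.2 and 47.5 FPKM in shControl and at 56.8, 54.6 and 49.5 FPKM in shPUS1. The groups were separate, the closest pair being shControl replicate 3 and shPUS1 replicate 3. For VCL the log2 fold change was 0.40 (SE 0.15, 95% interval 0.06 to 0.74, edgeR adjusted p = 0.148), and 0.43 with shControl replicate 2 left out (adjusted p = 0.0582). On the opposite strand, AP3M1 overlaps 11.1% of the exonic bases of VCL.

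Talin 1 (TLN1, chr9:35696948-35732195, minus strand), which activates integrins and is the main link from them to actin, was at 48.9, 64.1 and 75.0 FPKM in shControl and at 87.3, 88.3 and 74.1 FPKM in shPUS1. In FPKM shControl replicate 3 exceeded shPUS1 replicate 3, whereas on the TMM-scaled CPM the order was the other way (718 against 739), so the separation of TLN1 depended on the scaling. For TLN1 it came to 0.43 on the log2 scale (SE 0.17, 95% interval 0.04 to 0.83, edgeR adjusted p = 0.169). Without shControl replicate 1 it was 0.27 (adjusted p = 0.258). With replicate 2 of shControl left out instead it was 0.47 (adjusted p = 0.0820).

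**Figure D2:**
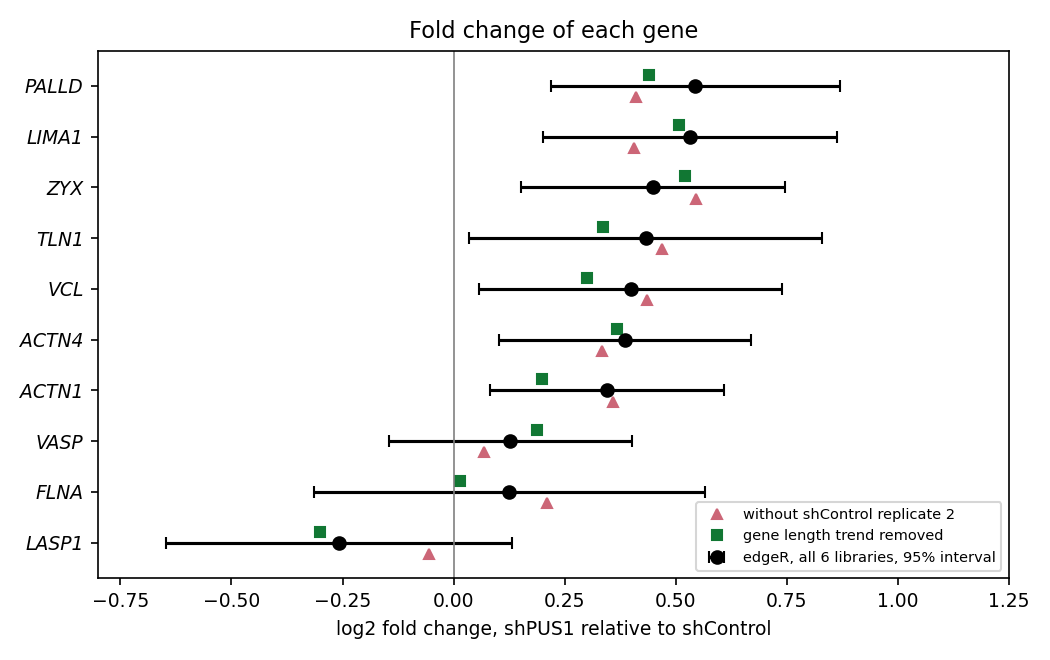
Log2 fold change of each gene in shPUS1 relative to shControl from edgeR on all 6 libraries (black points, bars are 95% intervals), without shControl replicate 2 (red triangles) and with the gene length trend of each library removed (green squares). The intervals of LASP1, FLNA and VASP include 0, and LASP1 moves from -0.26 to -0.055 once shControl replicate 2 is left out.

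Most of the 10 genes had a long exonic length, which is given per gene and is not that of a single transcript. The median was 8468.5 bases in the deposited table, and genes of long exonic length differed as a class between the libraries. Among the 2990 genes tested that were at least this long, the median log2 fold change was 0.11, and 24.7% were higher in shPUS1 without overlap, against 17.3% of the 11758 shorter genes. With the length trend of each library removed in edgeR, the log2 fold change was 0.20 for ACTN1, 0.30 for VCL, 0.34 for TLN1, 0.44 for PALLD and 0.015 for FLNA, each below its value without that step. For ACTN4 (0.37) and LIMA1 (0.51) it was little different, and for ZYX (0.52), VASP (0.19) and LASP1 (-0.30) it was farther from 0. Among the 1648 genes at or above the mean FPKM of PALLD, the median log2 fold change was -0.086 and 18.3% were higher without overlap. Among the 928 genes at least as abundant as PALLD and at least as long as ZYX, the shortest of the set, these values were -0.018 and 24.6%. For ACTN1 the deposited length (14320 bases) exceeds that in GENCODE (10626 bases), and removal of the trend was not tested with the latter. The part of exonic length in the results was not tested further.

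By mean FPKM over all libraries the order was ACTN4, FLNA, LASP1, LIMA1, TLN1, ZYX, ACTN1, VCL, VASP and PALLD. This order holds for the deposited exonic lengths. That of ACTN1 was 14320 bases, against 10626 exonic bases in GENCODE, and the shorter length would give ACTN1 a higher FPKM. The place of ACTN1 among its neighbours, in either group, was not tested with that length. In shControl, ACTN4 was separate from FLNA, LASP1 from LIMA1 and VASP from PALLD, while all other neighbours in that order overlapped. In shPUS1, TLN1 and ZYX, ACTN1 and VCL, and VCL and VASP overlapped and the other neighbours were separate. LASP1 and LIMA1 exchanged places: the lowest shControl library had 98.0 FPKM of LASP1 against at most 82.5 FPKM of LIMA1, and in shPUS1 LASP1 was at most 95.9 FPKM against at least 97.9 FPKM of LIMA1. Summed over the 10 genes, the level was 740, 818 and 891 FPKM in shControl and 1003, 968 and 948 FPKM in shPUS1. These sums did not overlap, with means of 816.6 ± 75.8 and 973.1 ± 28.1 FPKM (SD, n = 3 each), a ratio of 1.19.

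The spread between replicates also differed. The coefficient of variation of the FPKM was 9.02% to 22.2% over the shControl libraries and 1.30% to 12.9% over the shPUS1 libraries, and it was larger in shControl for 10 of the 10 genes. The same held for 84.1% of all genes tested, on the CPM scale. Within shControl, LASP1 and ZYX were highest in replicate 2, while LIMA1, PALLD, VASP and ACTN4 were lowest there. FLNA, ACTN1, VCL and TLN1 were lowest in replicate 1 and highest in replicate 3.

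Because a ratio of 2 genes within a library does not depend on library size, the level of LASP1 was also set against each of the other 9 genes. The ratio of LASP1 to ZYX was 2.03, 2.42 and 1.99 in shControl and 1.38, 1.36 and 1.24 in shPUS1. All shPUS1 ratios were lower, by 0.69 on the log2 scale (exact two-sided permutation test, p = 0.1, the smallest that 3 against 3 libraries can give). The ratio of LASP1 to ACTN4, its most abundant companion, was 0.498, 0.749 and 0.431 in shControl and 0.344, 0.368 and 0.346 in shPUS1, lower in all 3. The ratio of LASP1 to PALLD was 3.88, 7.79 and 4.08 in shControl and 2.98, 2.85 and 2.81 in shPUS1, and that to LIMA1 was 1.19, 2.45 and 1.38 against 0.972, 0.953 and 0.864.

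The LASP1 ratio was lower without overlap for 7 of the 9 genes, with log2 differences of -0.58 (ACTN1) to -0.79 (PALLD), and it overlapped for VASP (-0.36) and FLNA (-0.38). Over all 14747 other genes tested, 27.8% had a LASP1 ratio that was lower in shPUS1 without overlap and 7.25% had one that was higher. The 7 are also the genes that were themselves higher in shPUS1 without overlap, so their ratios are not a result separate from that. Since every ratio shares the LASP1 values, the 7 are not independent of each other. Leaving out a library cannot make separate groups overlap, so for these 7 only the size of the difference could change. With shControl replicate 2 left out, their log2 differences were smaller, at -0.47 for PALLD, -0.46 for LIMA1, -0.39 for ACTN4, -0.42 for ACTN1, -0.51 for VCL, -0.55 for TLN1 and -0.60 for ZYX. For VASP the difference was then -0.12 and for FLNA -0.29.

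**Figure D3:**
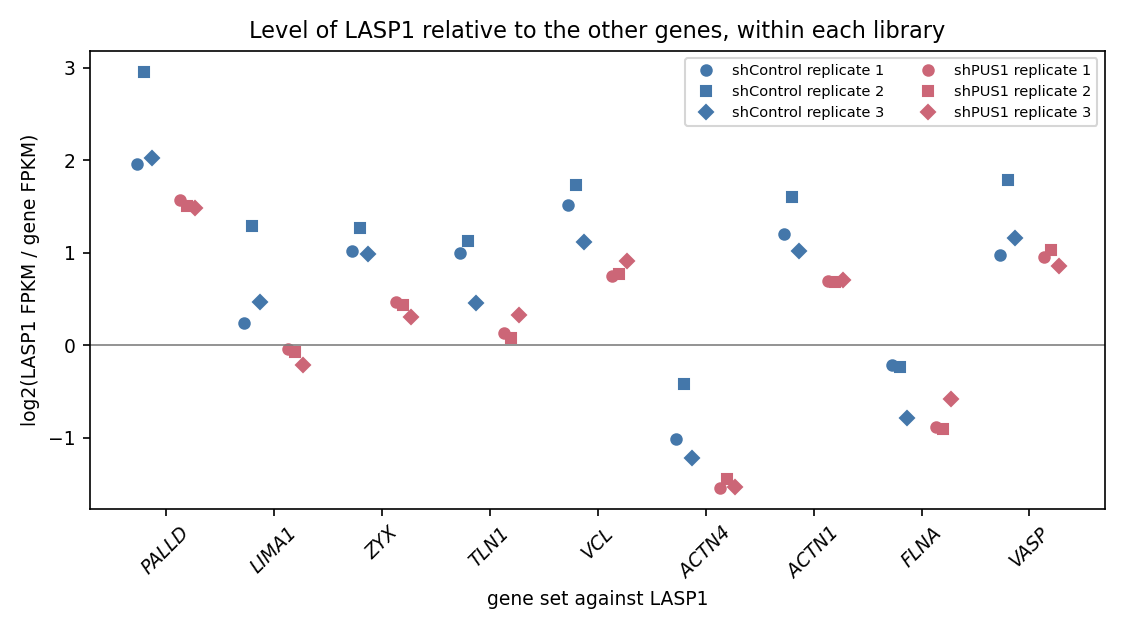
Log2 of the FPKM of LASP1 divided by the FPKM of each of the other 9 genes within each library, for shControl (blue) and shPUS1 (red), with a marker shape for each replicate. For 7 genes all shPUS1 points lie below all shControl points, while for FLNA and VASP the groups overlap.

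The genes whose profile over the 6 libraries was most like that of LASP1 were AP2M1 (a subunit of the clathrin adaptor AP-2), MRPL4 (a mitochondrial ribosomal protein), DDX39B (an RNA helicase of splicing and export), CENPA (the centromeric histone) and BUB1B (a mitotic checkpoint kinase). Likeness was the root mean square difference of log2 CPM, each gene centred on its own mean, among 4389 protein-coding genes with a mean of at least 10 FPKM. It was 0.028 for AP2M1, 0.029 for MRPL4, 0.032 for DDX39B, 0.034 for CENPA and 0.035 for BUB1B, with a median of 0.259 over all candidates. AP2M1, for example, was at 60.4, 84.8 and 61.7 FPKM in shControl and at 56.1, 57.2 and 57.5 FPKM in shPUS1, highest in shControl replicate 2 as LASP1 was. The other 9 genes of the set were farther from LASP1 than that median, from 0.285 for FLNA to 0.511 for PALLD. This order rested on shControl replicate 2, in which LASP1 and all 5 named genes were highest. Over the other 5 libraries the named genes ranked from 26 (MRPL4) to 66 (BUB1B), with likeness values of 0.030 to 0.038 against a median of 0.152, and VASP (0.101) was then closer to LASP1 than the median candidate.

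Among 20 paralogs of the 10 genes, 15 were tested and none passed the adjusted threshold in edgeR, with 4 higher and none lower at an unadjusted p under 0.05 (12.6% and 12.8% of all genes tested) and a median log2 fold change of 0.16. The smallest p-values belonged to ENAH, a relative of VASP (9.75 ± 1.33 FPKM in shControl and 13.4 ± 0.658 in shPUS1, log2 fold change 0.49, edgeR adjusted p = 0.0729), and to NEB, a muscle relative of LASP1 at no more than 0.05 FPKM in any library (adjusted p = 0.0731). FBLIM1, a LIM protein that binds filamins, was at 2.98 ± 0.775 and 5.04 ± 0.758 FPKM (0.79, edgeR adjusted p = 0.0887), and the zyxin relative LPP was at 6.09 ± 2.48 and 10.2 ± 2.35 FPKM (0.78, edgeR adjusted p = 0.139).

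The other zyxin relatives were close to 0 on the log2 scale, with -0.12 for TRIP6, 0.01 for AJUBA and -0.09 for LIMD1. FLNC was at 43.3 ± 11.9 and 59.1 ± 8.60 FPKM (0.47, edgeR adjusted p = 0.231), and its groups overlapped, as those of FLNA did. TLN2 had 0.17. The vinculin relatives CTNNA1 (95.2 ± 4.81 and 105.0 ± 1.37 FPKM) and CTNNAL1, the most abundant paralog (159.3 ± 22.5 and 134.0 ± 11.0 FPKM), had log2 fold changes of 0.16 and -0.23.

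Of 30 focal adhesion scaffolds and kinases, 28 were tested, and 3 rose and none fell (edgeR adjusted p under 0.05, the threshold that 1.74% of all genes passed upward), with a median log2 fold change of 0.19. At an unadjusted p under 0.05, 9 were higher and 3 lower, against 12.6% and 12.8% of all genes tested, so the 3 are near that share. The lower genes were FERMT1 (log2 fold change -1.99, at most 0.76 FPKM in any library), TNS2 (-0.84) and GIT2 (-0.32), named after their values were seen. FERMT2 (kindlin-2), which activates integrins with talin, was at 21.8, 18.6 and 20.8 FPKM in shControl and at 32.0, 31.3 and 34.8 FPKM in shPUS1 (0.71, edgeR adjusted p = 0.0341). LPXN, a paxillin relative, was at 7.16, 7.91 and 6.92 and at 12.5, 11.5 and 13.9 FPKM (0.80, edgeR adjusted p = 0.0445). TES, a LIM protein that binds zyxin, was at 26.5, 22.9 and 23.4 and at 35.4, 35.7 and 35.9 FPKM (0.58, edgeR adjusted p = 0.0460). In all 3 genes every shPUS1 library was above every shControl library. The most abundant gene of the list, ILK, the kinase-like core of the complex with parvin and PINCH, was at 73.2 ± 4.92 and 95.9 ± 5.88 FPKM (0.41, edgeR adjusted p = 0.0854).

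Of 21 actins, tropomyosins and contractile proteins, 20 were tested, and again 3 rose and none fell (1.74% and 0.841% of all genes tested), with a median log2 fold change of 0.11. At an unadjusted p under 0.05, 6 were higher and 2 lower, against 12.6% and 12.8% of all genes tested, so the 2 are near that share. They were TPM3 (log2 fold change -0.71) and TAGLN2 (-0.45), named after their values were seen. TAGLN (transgelin), an actin-binding protein of smooth muscle, was at 2.04, 0.99 and 2.52 FPKM in shControl and at 8.43, 9.37 and 9.82 FPKM in shPUS1 (log2 fold change 2.36, SE 0.30, edgeR adjusted p = 0.0215). CALD1 (caldesmon), which restrains myosin on actin, went from 23.3 ± 4.11 to 48.1 ± 2.69 FPKM (1.07, edgeR adjusted p = 0.0248), and MYL9, a myosin regulatory light chain, from 31.9 ± 2.04 to 57.4 ± 5.29 FPKM (0.87, edgeR adjusted p = 0.0248). Beta-actin (ACTB), the most abundant gene of the list, was at 797.6 ± 174.4 and 841.7 ± 69.3 FPKM (0.09, edgeR adjusted p = 0.769).

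All 32 actin assembly factors and regulators were tested and none passed the adjusted threshold in edgeR, with 5 higher and 3 lower at an unadjusted p under 0.05, near the 12.6% and 12.8% of all genes tested, and a median of 0.055. WASL (N-WASP), which activates the Arp2/3 complex, had 0.53 (edgeR adjusted p = 0.0802), and MRTFA, the actin-regulated coactivator of SRF, had 0.56 (adjusted p = 0.110). Profilin 1 (PFN1), the most abundant, was at 588.9 ± 218.7 and 501.4 ± 21.1 FPKM (-0.22, edgeR adjusted p = 0.607).

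The 6 called genes of these lists (FERMT2, LPXN, TES, TAGLN, CALD1 and MYL9) passed with shControl replicate 2 left out, and 4 of them passed with shControl replicate 3 left out (the largest of the 6 adjusted p-values was then 0.0592). Leaving out shControl replicate 1 lifted every adjusted p of these genes to 0.0681 or more, and leaving out any shPUS1 library lifted them to 0.136 or more, so that none of the 6 passed in edgeR. Few genes passed at all in those fits. Over all genes tested, 11 were called higher without shControl replicate 1, and 11, 6 and 0 without shPUS1 replicates 1, 2 and 3, with 0 lower in each. The log2 fold changes of the 6 genes stayed above 0.5 in every fit with a library left out. DESeq2 on all libraries called 15 genes of the 4 lists higher and 3 lower, against 7.12% and 5.56% of all genes tested.

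**Figure D4:**
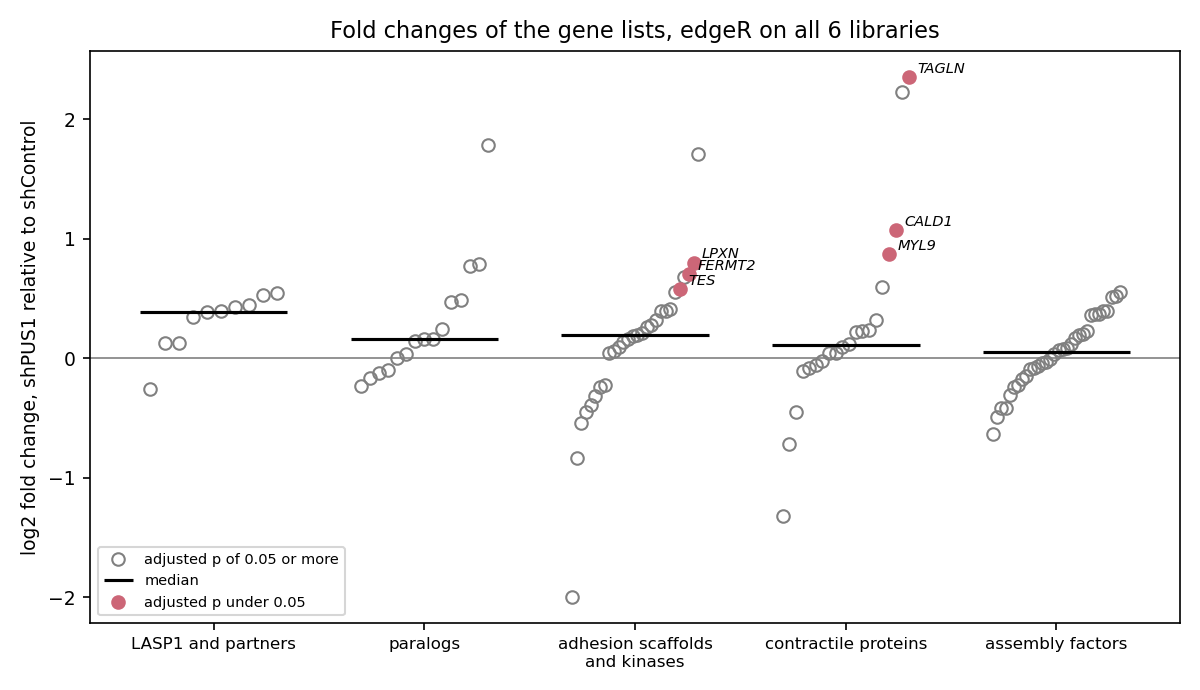
Log2 fold change in shPUS1 relative to shControl (edgeR, all 6 libraries) of each tested gene of the set and of the 4 lists, ordered within a list, with the median as a black line and genes at an adjusted p under 0.05 filled in red and named. The 10 genes have the highest median (0.39) with no filled point, and the filled points are TAGLN, CALD1 and MYL9 among contractile proteins and LPXN, FERMT2 and TES among scaffolds and kinases.

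Promoters of the 10 genes, taken from RefSeq on GRCh38.p14 (250 bases before to 50 after the start), were searched on both strands for motifs of factors that are known to act on cytoskeletal genes. The CArG box, bound by SRF, was found in 1 of the 10, that of FLNA, and in 1.29% of 27305 promoters. The AP-1-like pattern TGANTCA, which allows any base in the middle, was found in ACTN4 (as TGAATCA) and in 7.76% of promoters. The TEAD site GGAATG was found in VCL and in 14.1% of promoters. The GC box GGGCGG was found in 8 of the 10, all but PALLD and VASP, and in 44.6% of promoters. These 8 promoters had GC contents of 69.3% to 78.3%, against a median of 58.3% over all promoters. PALLD (46.7%) and VASP (61.3%) had the lowest of the 10, and the part of GC content in this count was not tested. The windows below show the single CArG, AP-1-like and TEAD matches, each with the motif in capitals, at chrX:154374709-154374738 on the minus strand, chr19:38647399-38647418 on the plus strand and chr10:73997933-73997962 on the plus strand.
FLNA promoter: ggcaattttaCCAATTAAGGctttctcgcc
ACTN4 promoter: taTGAATCAttcatgatctg
VCL promoter: gcccctcccttaGGAATGggggaggggcgg
The first base of the match lay 94, 248 and 171 bases before the RefSeq start of transcription in FLNA, ACTN4 and VCL. RefSeq starts do not equal the deposited starts in every gene. The deposited VCL gene begins farther upstream, at 73995193, so the VCL window lies inside it.

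Since a hairpin can act on other transcripts through its seed (bases 2 to 8 of the guide strand), the study's 3 hairpin target sequences are shown with the seed-matched bases in capitals.
shPUS#1: tgtcgggtcctcaCAATTCAa
shPUS#2: gcacttcgagaagTACAACCa
shPUS#3: gcacgcacaacttCCACAATt
In the 3′ UTRs of 12485 genes (GENCODE 29), the seed match of shPUS#1 occurred in 8.98% and in none of the 10 genes, that of shPUS#2 in 5.12% and in TLN1 and VCL, and that of shPUS#3 in 7.04% and in VCL. LASP1 held none of the 3. Among the 10 genes, the UTRs searched ran from 92 bases in PALLD to 2992 bases in LASP1. A short UTR has few places for a match, and the part of UTR length in these counts was not tested.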

How the data were processed

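RNA from 6 MDA-MB-231 cultures (3 shControl, 3 shPUS1) was extracted with Trizol, poly(A) selected and sequenced. The submitters' processing notes name HISAT2 and HTSeq 0.6.1, while the genome build, annotation and strandedness were not given in the sources used here. The authors deposited, per gene and library, estimated counts (29.8% to 31.8% of the values above 0 are not whole) and FPKM values, which equal the count scaled by exonic length and library total to within 0.005. Columns of the authors' own comparison hold fold changes and p-values and were not used.

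Counts were rounded and tested with edgeR 4.0.16 in R 4.3.3 (filterByExpr, TMM factors of 0.973 to 1.03, quasi-likelihood test), with the Benjamini-Hochberg adjustment over all 14748 genes tested. A prior count of 2 was used for log2 CPM values. The SE is the absolute log2 fold change over the square root of F, and intervals are 95%. A call is an adjusted p under 0.05. The scripts were tested on simulated data. Alternatives used DESeq2 1.42.0, limma 3.58.1 on log2(FPKM + 0.1) and log2(FPKM + 1) (genes with a mean of at least 1 FPKM) and voom with sample weights, other scalings, no filter, a removed length trend, the replicate number as a block and each library left out. Leaving shControl replicate 2 out of the LASP1 ratios and of the likeness was chosen after seeing the data.

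The genes, lists and tests were chosen with earlier results of these data known. Named are the 10 genes, PUS1, the called genes of each list (at most 4 per direction) or else the 2 with the smallest p, the most abundant gene of each list, paralogs with a mean of at least 1 FPKM in either group, and the 5 genes most like LASP1; 1 gene under this rule, and the result that needs it, is not reported here. The marker genes were named as a check of the line. Libraries with the same replicate number did not deviate together (residual correlations -0.05, -0.03 and -0.19), so numbers were not taken as pairs. Gene positions are as deposited, and equal GENCODE 29 (GRCh38) at both ends for LASP1, VCL, LIMA1 and VASP.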

Additional observations from a re-analysis of the deposited data

How the results depend on the processing

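Of the 10 genes, none was called lower under any alternative and up to 7 were called higher. The counts called higher were 5 with DESeq2, 7 with voom and sample weights, 1 without a filter on low counts, and 0 to 4 with a library left out. LASP1 stayed below 0, from -0.37 to -0.055, and was called in no fit (adjusted p 0.236 to 0.690). FLNA alone changed sign, to -0.053 without shControl replicate 1, in a range of -0.053 to 0.23 with a library left out. The cause of these shifts was not tested. With 3 libraries a group and a biological coefficient of variation of 0.220, changes of the size of LASP1's could be missed.

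Over all genes tested, 256 were called higher and 124 lower. These counts were 1050 and 820 with DESeq2, 1692 and 1398 with voom, 756 and 528 without a filter, 164 and 132 with library totals alone, 134 and 116 on log2(FPKM + 0.1), and 0 to 1483 and 0 to 1330 with a library left out. Upper quartile factors gave 165 and 180, which turns the balance of the 2 directions. For the 4 lists together, 6 genes were called higher and 0 lower, and these counts were 15 and 3 with DESeq2, 22 and 5 with voom, 11 and 2 without a filter, and 0 to 21 and 0 to 4 with a library left out.

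With the replicate number as a block, 18 genes were called higher and 0 lower over all genes, 1 gene of the lists (TAGLN) was called higher, and none of the 10 genes was called. The numbers did not pair the libraries. PUS1 had -1.55 with the block (adjusted p = 0.0969), -1.48 on log2(FPKM + 0.1) (adjusted p = 0.0514) and -1.001 on log2(FPKM + 1) (adjusted p = 0.0544), and -1.86 to -1.20 with a library left out, where its call was lost without shControl replicate 1 and without each shPUS1 library (adjusted p up to 0.253). It was kept without shControl replicate 2 (edgeR adjusted p = 0.00311) and without shControl replicate 3 (0.0458). DESeq2 (adjusted p = 0.000127), voom with sample weights (0.00209) and edgeR without a filter (0.0014) also called PUS1.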
